A study of Mus musculus with 5 samples.

Results

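The tumour necrosis factor (TNF) superfamily was examined in tumour-infiltrating macrophages through 10 of its ligands: Tnf, Lta, Ltb, Fasl, Tnfsf10, Tnfsf9, Tnfsf12, Tnfsf13, Tnfsf13b and Tnfsf14. All probe sets whose platform annotation named one of these 10 genes were taken, which gave 16 of the 45101 probe sets on the array. Single-symbol probe sets covered 8 of the genes with 14 probe sets. Tnfsf12 and Tnfsf13 were represented only by 2 probe sets with several symbols, described apart below. One Tnfsf13b probe set lay under the floor of low signals on all arrays and was not tested, so that 15 probe sets were compared.

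One group was CD11b+ macrophages, labelled tumoricidal, from Matrigel plugs containing MOPC315 myeloma cells (3 arrays, T1 to T3 after their replicate numbers). They were set against CD11b+ macrophages, labelled control and non-tumoricidal, from plugs containing antigen-loss MOPC315 (2 arrays, C1 and C2). Matrigel is a gel of basement membrane proteins, and MOPC315 is a mouse plasma cell tumour line. All hosts, those of the control cells included, were SCID Balb/c mice with a transgenic T-cell receptor against the idiotype, aged 7 to 12 weeks, and the plugs were taken on day 8. SCID mice without such a transgene lack most lymphocytes of their own but keep natural killer cells, which can also carry CD11b. For the hosts used here a lack of T cells cannot be assumed. The labels call the arrays biological replicates and do not say how many mice were pooled for an array.

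Ligands of the TNF superfamily are mostly membrane proteins that act as trimers, and several are cut from the cell surface by proteases. Receptors with a death domain, such as Fas and the TNF and TRAIL receptors, can start caspase-driven cell death, while the other receptors recruit TRAF adaptors and switch on NF-kB. Tnf, Lta, Fasl and Tnfsf10 (TRAIL) bind receptors with a death domain and are called death ligands here. Ltb, Tnfsf9 (4-1BB ligand), Tnfsf12 (TWEAK), Tnfsf13 (APRIL), Tnfsf13b (BAFF) and Tnfsf14 (LIGHT) form the other group. Activated macrophages are a classical source of Tnf and BAFF, and Fas ligand and lymphotoxins are classically made by T cells and natural killer cells.

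Upstream sequences are given for 5 ligands, because Ltb, Tnf and Lta lie next to each other on chromosome 17 with no gene between them in RefSeq yet differed in signal pattern, and because Fasl and Tnfsf10 were the death ligands with the clearest separation of the groups. Each run covers the 250 bases before the RefSeq start, 5′ to 3′ on the strand of the gene, in RefSeq assembly GRCm38.p6. Capitals mark matches to any of 4 motifs on either strand: TTCNNNGAA, the core of sites bound by STAT proteins, GAAA repeated after 2 bases of any kind, the core of interferon-stimulated response elements (ISRE), GGG followed after 5 bases of any kind by CC, a loose form of the NF-kB site, and TATAAA, the TATA box. Neighbouring or overlapping matches form 1 block of capitals.
Ltb, chr17:35194257-35194506, plus strand: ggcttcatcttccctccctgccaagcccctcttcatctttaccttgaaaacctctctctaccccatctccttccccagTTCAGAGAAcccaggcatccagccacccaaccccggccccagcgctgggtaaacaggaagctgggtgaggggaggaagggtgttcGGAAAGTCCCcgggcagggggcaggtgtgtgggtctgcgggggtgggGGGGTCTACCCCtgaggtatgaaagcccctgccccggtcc
Tnf, chr17:35202008-35202257, minus strand: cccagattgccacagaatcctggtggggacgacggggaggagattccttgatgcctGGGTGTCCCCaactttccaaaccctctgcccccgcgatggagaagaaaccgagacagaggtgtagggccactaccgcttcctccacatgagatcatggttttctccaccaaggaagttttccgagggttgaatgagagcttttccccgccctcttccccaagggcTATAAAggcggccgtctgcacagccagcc
Lta, chr17:35205352-35205601, minus strand: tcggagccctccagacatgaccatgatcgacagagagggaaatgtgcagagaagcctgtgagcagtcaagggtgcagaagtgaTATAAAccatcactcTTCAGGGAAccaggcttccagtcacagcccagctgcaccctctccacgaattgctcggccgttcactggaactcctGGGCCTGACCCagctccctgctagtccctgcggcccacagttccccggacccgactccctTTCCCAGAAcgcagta
Fasl, chr1:161788496-161788745, minus strand: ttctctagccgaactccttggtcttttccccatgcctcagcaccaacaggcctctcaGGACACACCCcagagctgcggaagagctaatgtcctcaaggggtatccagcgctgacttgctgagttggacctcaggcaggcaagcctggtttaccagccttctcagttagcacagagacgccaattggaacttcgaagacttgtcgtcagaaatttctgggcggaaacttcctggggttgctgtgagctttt
Tnfsf10, chr3:27316827-27317076, plus strand: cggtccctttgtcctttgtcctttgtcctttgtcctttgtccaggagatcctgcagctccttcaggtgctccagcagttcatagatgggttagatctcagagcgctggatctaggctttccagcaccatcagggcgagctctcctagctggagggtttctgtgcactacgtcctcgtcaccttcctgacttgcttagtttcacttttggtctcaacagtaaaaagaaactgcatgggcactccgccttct

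Promoters were found in the table for 8 of the 10 ligands, and the search also covered the 50 bases after the start. TTCNNNGAA occurred in Lta and Ltb, against 8.3% of all 32851 promoters of 300 bases. The ISRE core occurred in Tnfsf13b alone, at one of its 2 starts, against 3.44% of all promoters. The loose NF-kB form occurred in 6 of the 8 (Tnf, Lta, Ltb, Fasl, Tnfsf13 and Tnfsf14), against 50.8% of all promoters. TATAAA occurred in Tnf and Lta, against 13.6%. Tnfsf10 held none of the 4 motifs in this window. These matches describe letters only, and binding was not measured.

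No ligand passed the test across the whole table. Of all 41053 probe sets tested, 0.0512% had a limma adjusted p under 0.05, and none of the 15 ligand probe sets did. The lowest adjusted p was 0.250, for Ltb. At an unadjusted p under 0.05, 7 of the 15 were higher in tumoricidal macrophages, where 4.92% of all probe sets were, and 0 were lower, where 3.07% of all probe sets were. The 7 came from only 4 genes, Ltb, Fasl, Tnfsf10 and Tnfsf14, since probe sets of a gene share their target. All tumoricidal arrays exceeded both control arrays at 9 of the 15, against 13.3% of all probe sets, and lay below both at 0 of the 15, against 7.6%. Counted by gene, with the probe set of the highest mean taken for each, 3 of 8 were higher at an unadjusted p under 0.05 (6.12% of 17074 named genes) and 5 of 8 were apart and higher (17% of named genes), with 0 apart and lower (6.51%). None of the 8 passed the adjusted threshold, which 0.0644% of named genes did. The median log2 difference was 0.77 over the 8 ligands and 0.13 over all named genes.

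**Figure D1:**
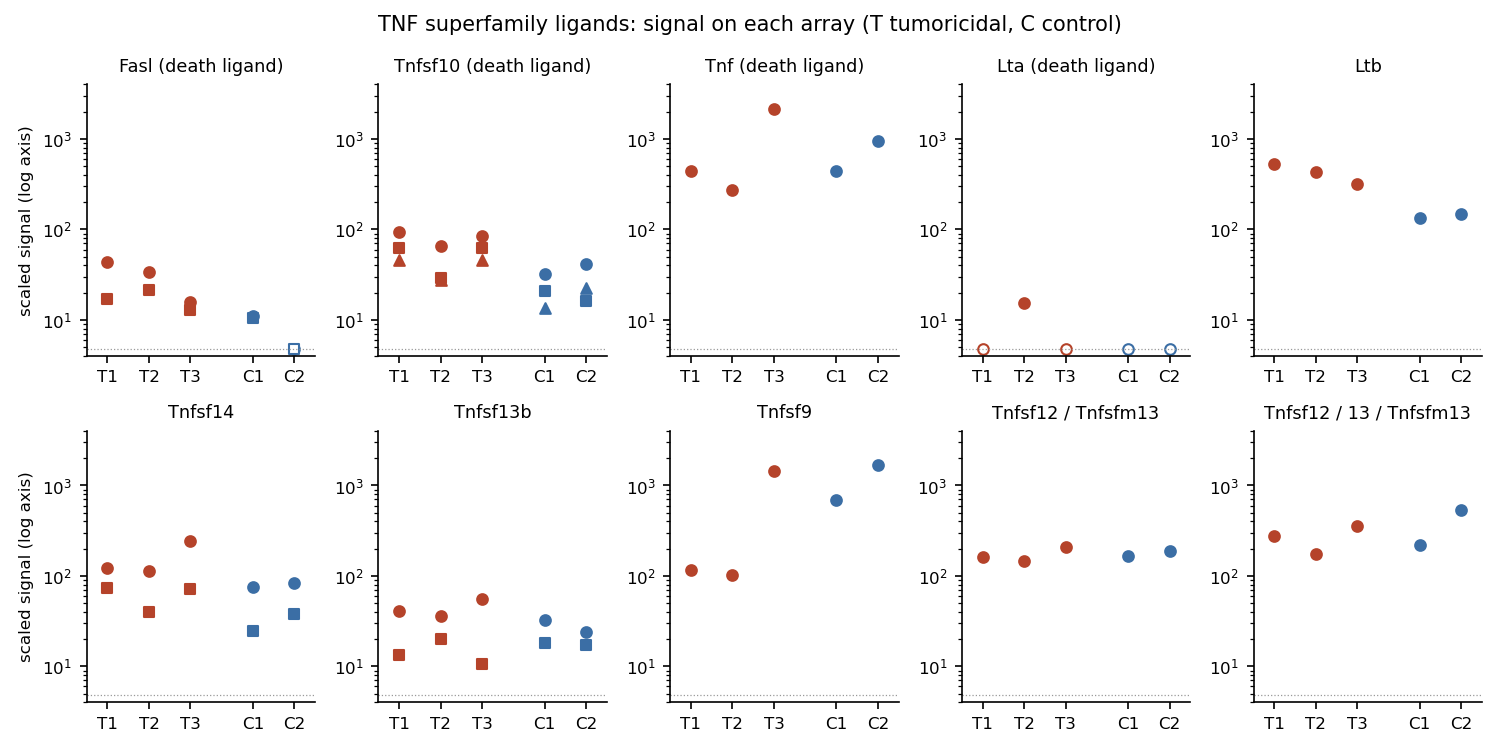
Scaled signal (log axis) of every tested ligand probe set on each array, with tumoricidal arrays T1 to T3 at the left and control arrays C1 and C2 at the right of each panel. Different marker shapes are different probe sets of a gene, open markers lie at the floor of 4.79 (dotted line), and levels are not comparable between probe sets. Ltb, Fasl, Tnfsf10 and Tnfsf14 sit higher on the tumoricidal arrays, while Tnf and Tnfsf9 differ most between arrays of the same group.

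Among the death ligands, Fas ligand and TRAIL had higher signals in tumoricidal macrophages. Fasl, the ligand that triggers death through Fas, had scaled signals of 43.4, 33.7 and 15.9 on T1 to T3, against 11.1 on C1 and 3.1 on C2, the last of which is below the floor of 4.79. The groups did not overlap, although T3 was nearer to C1 than to the other tumoricidal arrays. Fitted with the floor standing in for C2, the groups differed by 1.97 on the log2 scale (SE 0.57, limma adjusted p = 0.450). This difference was 1.79 among batch A arrays and 1.73 among batch B arrays, the batches being described below, and 1.37 without C2 and 2.57 without C1. The other Fasl probe set had 17.0, 21.6 and 12.9 on T1 to T3, against 10.6 and 1.4 on C1 and C2. Its groups were apart too by 1.23 log2 units (SE 0.43, limma adjusted p = 0.559).

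Tnfsf10 encodes TRAIL, which triggers death in many tumour cells and is inducible by interferons. Its probe set with the highest mean gave 93.1, 65.5 and 84.0 on T1 to T3, against 32.4 and 41.0 on C1 and C2. Means were 80.8 ± 14.1 (SD, n = 3) in tumoricidal and 36.7 ± 6.07 (SD, n = 2) in control macrophages, a 2.19-fold difference. On the log2 scale this was 1.13 (SE 0.28, 95% interval 0.45 to 1.82, limma adjusted p = 0.364), with 1.27 within batch A and 1.04 within batch B. The other 2 probe sets behaved alike, with log2 differences of 1.40 (SE 0.42) and 1.16 (SE 0.38) and no overlap between the groups. T2 was the lowest of its group on all 3 probe sets.

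Tnf, the main inflammatory cytokine of macrophages, did not separate the groups. Signals of Tnf were 443, 276 and 2155 on T1 to T3, against 442 and 959 on C1 and C2. T3 held the highest value of all arrays and T2 the lowest. The log2 difference of -0.02 had an SE of 0.92 and a 95% interval of -2.30 to 2.26 (limma adjusted p = 0.996), which leaves room for large differences in either direction. Its sign turned with the batch, being -0.34 in batch A and 1.17 in batch B, while a fit blocked on batch gave 0.31. Without T3 the difference was -0.90.

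Lta, the soluble lymphotoxin that shares the TNF receptors, was above the floor on 1 of 5 arrays. T2 had 15.5, against values under the floor on the other 2 tumoricidal and on both control arrays. The fitted log2 difference of 0.56 (SE 0.57, limma adjusted p = 0.853) therefore rests on that array alone at this floor. With the floor at the pooled 10th percentile it was 2.12 (SE 0.83, limma adjusted p = 0.735).

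The other ligands included the lowest p and the most negative difference of the family. Ltb, which anchors lymphotoxin at the cell surface and acts through Ltbr, had 523, 434 and 315 on T1 to T3, against 135 and 150 on C1 and C2. Every tumoricidal array was above both control arrays, T3 being the nearest to them. The means were 424 ± 104 (SD, n = 3) in tumoricidal and 142 ± 10.6 (SD, n = 2) in control macrophages. This 2.92-fold difference was 1.55 on the log2 scale (SE 0.30, 95% interval 0.80 to 2.29, limma adjusted p = 0.250), 1.82 within batch A and 1.07 within batch B.

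Tnfsf14, a ligand of both Tnfrsf14 and Ltbr, had 122, 114 and 242 on T1 to T3, against 75.7 and 84.0 on C1 and C2. The log2 difference was 0.91 (SE 0.39, 95% interval -0.07 to 1.89, limma adjusted p = 0.672), and 0.56 without T3, the highest array. Its second probe set, with 73.6, 40.4 and 71.5 on T1 to T3 against 24.7 and 37.8 on C1 and C2, differed by 0.97 (SE 0.38, limma adjusted p = 0.612). Both probe sets kept the groups apart, on the second by a narrow margin between T2 and C2.

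Tnfsf13b encodes BAFF, a survival factor of B cells and plasma cells. The probe set with the highest mean gave 40.5, 36.3 and 55.8 on T1 to T3, against 32.5 and 24.1 on C1 and C2. Its log2 difference of 0.63 (SE 0.30, 95% interval -0.12 to 1.39) did not pass (limma adjusted p = 0.727). The other tested probe set went the opposite way, at -0.32 (SE 0.34), with 13.2, 20.1 and 10.6 on T1 to T3 and 18.1 and 17.2 on C1 and C2. The direction for Tnfsf13b thus depends on the probe set.

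Tnfsf9, which costimulates T cells and natural killer cells through Tnfrsf9, had 115, 103 and 1437 on T1 to T3, against 696 and 1670 on C1 and C2. T1 and T2 were below both control arrays, but T3 lay between the control arrays. The log2 difference was -2.07 (SE 1.23, 95% interval -5.12 to 0.98, limma adjusted p = 0.788). Batch A gave -2.68 and batch B -0.22, a fit blocked on batch gave -1.62 (SE 0.62, limma adjusted p = 0.505), and the difference was -3.31 without T3.

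Tnfsf12 and Tnfsf13 are adjacent genes on chromosome 11, and Tnfsfm13 is the read-through transcript that joins them. The probe set annotated with all 3 symbols was designed on a Tnfsf13 transcript, by its accession, and had 274, 176 and 355 on T1 to T3 against 219 and 531 on C1 and C2. The groups overlapped, and differed by -0.40 log2 units (SE 0.49, limma adjusted p = 0.858). The probe set shared by Tnfsf12 and Tnfsfm13 had 163, 146 and 211 on T1 to T3, against 165 and 188 on C1 and C2. Its difference of -0.04 (SE 0.27, 95% interval -0.71 to 0.63) was the most tightly bounded of the family. Which of the transcripts these signals came from cannot be told.

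**Figure D2:**
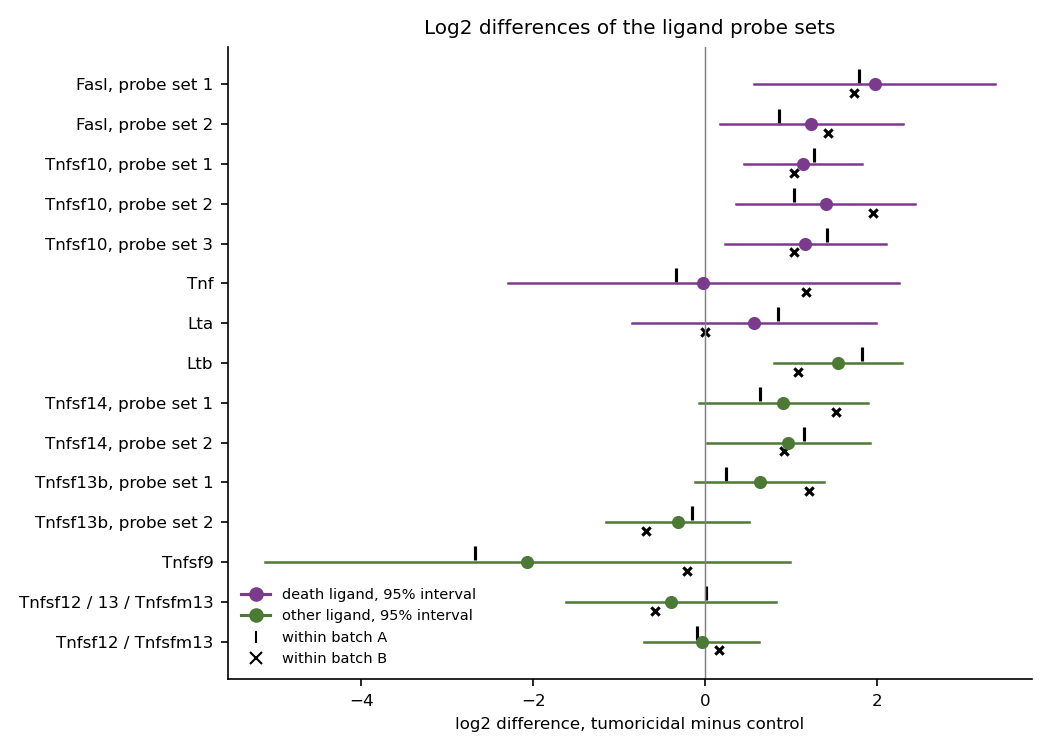
Log2 difference (tumoricidal minus control) of each tested ligand probe set with its 95% interval from limma, death ligands in purple and other ligands in green. Bars and crosses give the differences within array batches A and B. Intervals of Fasl, Tnfsf10, Ltb and the second Tnfsf14 probe set lie above 0 before adjustment, whereas those of Tnf and Tnfsf9 span several log2 units.

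The death ligands and the other ligands had overlapping ranges of difference. The median log2 difference was 0.85 over the 4 death ligands, with a range of -0.02 to 1.97, and 0.77 over the other 4 with a single-symbol probe set, with a range of -2.07 to 1.55. Medians differed by 0.08, which was given no test. Within batch A the median difference between both kinds was 0.62, and within batch B it was -0.04.

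Spike-in control probe sets separated T1 and T2 and C1 (batch A) from T3 and C2 (batch B): the BioC control in B was 0.313 times that in A, while Lys, Phe and Dap were 2.34, 2.33 and 1.90 times as high. What the batches were is not given in the sources used here. Tnf and Tnfsf9 were higher on the batch B array than on every batch A array of the same group, in tumoricidal and in control macrophages alike. Deposited array medians lay between 15.4 and 18.7 for tumoricidal and were 22.6 and 18.0 for control arrays. Scaling by the median set all named genes at a median of 0.13, against -0.07 with the deposited values and 0.02 with quantile normalization. Ltb, Fasl, Tnfsf10, Tnfsf14, Lta and the main Tnfsf13b probe set stayed positive, and Tnf and Tnfsf9 negative, under those 3 scalings. With 5 arrays, array number limits how precise these values are.

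Macrophage markers were high in both groups, which the labels name as macrophages. All 10 of 10 were above the floor on every array, with summed signals of 27716 to 42461 on tumoricidal and 25286 to 34779 on control arrays. At an unadjusted p under 0.05, 0 of them differed, where 6.12% of named genes were higher and 2.79% lower. Differences were positive for 9 of the 10, with a median of 0.33 beside 0.13 for all named genes. Groups were apart and higher for 2 (17% of named genes) and apart and lower for 0 (6.51%).

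Natural killer markers were higher alongside Fasl and Ltb. Their summed signal over 9 tested genes was 4438, 4794 and 1570 on T1 to T3, against 685 and 291 on C1 and C2. Of the 9, 7 were higher at an unadjusted p under 0.05, against 6.12% of named genes. Klra8 was at the floor on T2, and Eomes, Klre1 and Klra8 on at least 1 control array, while Ncr1, the defining receptor, had 81.1, 38.8 and 24.1 on T1 to T3 against 9.72 and 7.6 on C1 and C2. The sum was highest on T1 and T2 and lowest on C2, as was the main Fasl probe set, but the sum is carried by Gzma and Gzmb and single markers departed from that order: Klrk1 had 593, 304 and 425 on T1 to T3, and Klre1 was lower on C1 than on C2. Perforin (Prf1) agreed in sign on only 1 of its 2 probe sets. The part of such cells in the Fasl and Ltb signals was not tested. In bulk RNA, more or fewer cells of a type cannot be told apart from more or less RNA per cell.

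T-cell markers stood out on the array that carried Lta. Their summed signal over 10 tested genes was 1602 on T2, against 256 and 178 on T1 and T3 and 248 and 128.5 on C1 and C2. Cd3e, a subunit of the T-cell receptor complex, had 196 on T2 and at most 9.58 on the other arrays. Of the 10 markers 2 were higher at an unadjusted p under 0.05 (6.12% of named genes), Cd3g and Thy1. Cd40lg was at the floor on 2 tumoricidal arrays, and Cd3e and Cd247 each on a control array. Single markers differed between T1 and C1 in both directions, with Thy1 at 79.9 on T1 and 26.6 on C1, and Cd28 at 35.4 on T1 and 94.5 on C1. The part of T cells in the Lta, Ltb and Fasl signals was not tested.

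**Figure D3:**
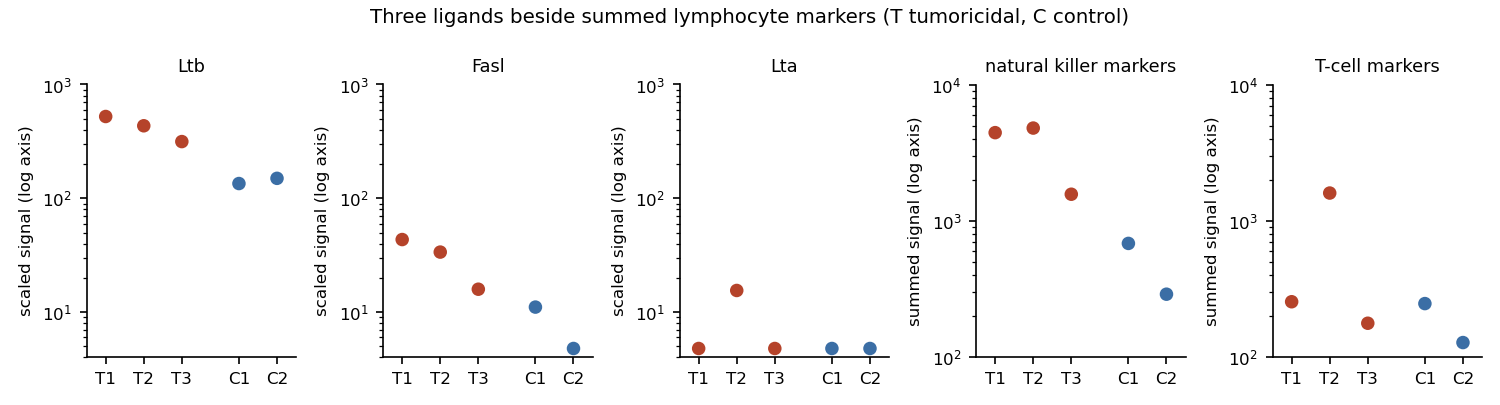
Scaled signals of Ltb, Fasl and Lta (log axis, values under the floor drawn at 4.79) beside the summed signals of 9 natural killer markers and 10 T-cell markers (log axis) on tumoricidal arrays T1 to T3 and control arrays C1 and C2. Lta and the T-cell markers peak on T2 (15.5 and 1602), whereas Fasl and natural killer markers are high on both T1 and T2.

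For the other marker lists, 6.12% of named genes higher and 2.79% lower at an unadjusted p under 0.05 is the background. Neutrophil markers (7 tested) summed to 9084 to 10153 on tumoricidal and 3882 to 6504 on control arrays, with 3 higher at an unadjusted p under 0.05. That sum is carried by S100a8 and S100a9, with tumoricidal means of 4445 and 4957. Differences were positive for 5 of the 7, while Mpo and Elane differed by -0.29 and -0.35. Plasma cell or myeloma markers (8 tested) summed to 3587 to 4879 on tumoricidal and 5631 to 6287 on control arrays, with 4 lower at an unadjusted p under 0.05. Xbp1 and Prdm1, 2 of the 8, went the other way, by 0.30 and 0.66. Xbp1 had the largest signals of the list, with means of 3176 in tumoricidal and 2588 in control macrophages. Eosinophil, mast cell and basophil markers (6 tested) summed to 133 to 167 on tumoricidal and 13.3 to 53.6 on control arrays, with 3 higher. Dendritic cell markers (6 tested) summed to 361 to 443 on tumoricidal and 193 to 237 on control arrays, with 1 higher and 1 lower. Only 3 of the 6 differences were positive, and the 1 higher gene was Batf3, with means of 239 in tumoricidal and 84.4 in control macrophages. The part of these cell types in the ligand signals was not tested. Summed B-cell markers ran from 53.6 to 78.1 on tumoricidal and from 72.4 to 107 on control arrays, with 0 past an unadjusted p of 0.05. Fibroblast markers summed to 1182 to 4118 on tumoricidal and 1865 to 3195 on control arrays. Endothelial markers summed to 61.5 to 112 on tumoricidal and 102 to 114 on control arrays, and in neither list did a gene reach that level.

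Receptors of the ligands were measured on the same arrays. All 14 were tested, and 0 passed at an adjusted p under 0.05. At an unadjusted p under 0.05, 2 were higher (6.12% of named genes) and 1 was lower (2.79% of named genes). Groups were apart and higher for 6 (17% of named genes) and apart and lower for 2 (6.51%). Fas, the death receptor for Fasl, had 331, 308 and 334 on T1 to T3, against 57.2 and 93.1 on C1 and C2. The 3 tumoricidal arrays lay close together and well above both control arrays, with a log2 difference of 2.15 (SE 0.29, 95% interval 1.42 to 2.88, limma adjusted p = 0.138), 2.48 within batch A and 1.84 within batch B. Both the ligand Fasl and its receptor were thus higher on all tumoricidal arrays.

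Tnfrsf14 (HVEM), which binds Tnfsf14, had 138, 76.6 and 101 on T1 to T3, against 34.1 on C2 and a value under the floor on C1. With the floor in place of C1 the log2 difference was 3.0 (SE 0.83, limma adjusted p = 0.422), with 4.42 within batch A and 1.57 within batch B. Tnfrsf12a, the TWEAK receptor Fn14, had 59.8, 42.3 and 85.9 on T1 to T3, against 11.4 and 40.2 on C1 and C2. Its log2 difference of 1.49 (SE 0.61, limma adjusted p = 0.632) came with a narrow gap between T2 and C2. The other Tnfrsf12a probe set differed by 1.41 (SE 0.996) with the groups overlapping, and was at the floor on 1 control array.

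Tnfrsf17 (BCMA), the plasma cell receptor for APRIL and BAFF, was under the floor on all 3 tumoricidal arrays and had 24.2 and 37.2 on C1 and C2. This made it at least 6.26-fold lower (limma adjusted p = 0.0674). It is itself one of the plasma cell markers above. Tnfrsf13c (BAFF receptor) differed by -0.90 (SE 0.47) with the groups apart, while Tnfrsf13b (TACI), which binds both ligands, differed by 0.43 (SE 0.32) with overlap.

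Tnfrsf1a, the death-domain receptor for Tnf and Lta, differed by 0.47 (SE 0.27) and Tnfrsf1b, which has no death domain, by 0.20 (SE 0.37). Ltbr differed by 0.29 (SE 0.34) and Tnfrsf9, the partner of Tnfsf9, by 0.50 (SE 0.42) on the probe set with the highest mean. Its other probe sets gave 2.10 (SE 0.80, limma adjusted p = 0.593), with the groups apart and means of 53.5 in tumoricidal and 15.6 in control macrophages, and 0.46 (SE 0.57). The former was at the floor on 1 control array and the latter on 1 tumoricidal array. The size of the Tnfrsf9 difference thus depends on the probe set. The TRAIL death receptor Tnfrsf10b had 10.6 and 12.4 on T1 and T3 and a value under the floor on T2, against 10.6 and 10 on C1 and C2, a log2 difference of -0.27 (SE 0.45). The mouse decoy receptors Tnfrsf22 and Tnfrsf23 differed by 0.50 (SE 0.24) and 0.30 (SE 0.25), with the groups apart, although they overlapped on the other 2 Tnfrsf22 probe sets. Tnfrsf11b (osteoprotegerin), a soluble decoy, was above the floor on C1 only.

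**Figure D4:**
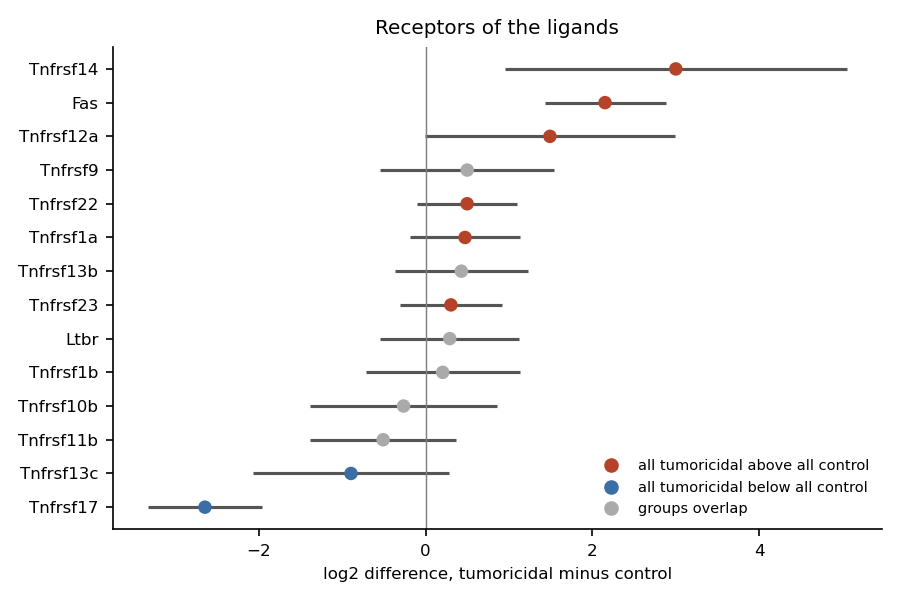
Log2 difference (tumoricidal minus control) of the 14 receptors with 95% intervals from limma. Red points mark receptors with all tumoricidal arrays above both control arrays, blue points those with all below, and grey points those that overlap. Tnfrsf14 and Fas lie at the upper end (3.0 and 2.15) and Tnfrsf17 at the lower end (-2.65).

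Among genes that carry the death signal inside the cell, Mlkl, Ripk3 and Casp8 had the smallest p values and were higher on every tumoricidal array. Of 14 listed, 11 were tested, 0 passed at an adjusted p under 0.05 and 3 were higher at an unadjusted p under 0.05 (6.12% of named genes), with 0 lower (2.79%). Mlkl, the pore-forming executioner of necroptosis, had 338, 259 and 473 on T1 to T3, against 105 and 108 on C1 and C2 (log2 difference 1.70, SE 0.32, limma adjusted p = 0.239). Ripk3, the kinase that activates Mlkl, differed by 0.94 (SE 0.33, limma adjusted p = 0.569). Casp8, the initiator caspase of death receptors, differed by 0.73 (SE 0.27, limma adjusted p = 0.585). All 3 kept the groups apart. In the whole list 6 of the 11 were apart and higher, against 17% of named genes, and 0 apart and lower (6.51%). The median of the 11 was 0.54, beside 0.13 for all named genes.

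TRAF adaptors and NF-kB components (14 of 17 tested) gave 0 genes at an adjusted p under 0.05 and 1 higher at an unadjusted p under 0.05, a share near that of all named genes. That gene, the adaptor Traf5, differed by 0.86 (SE 0.27, limma adjusted p = 0.497). The next smallest p values belonged to the NF-kB subunits Relb at 0.66 (SE 0.32) and Nfkb2 at 0.48 (SE 0.28), and the median was 0.32. Traf3, Chuk and Nfkb1 are not analysed here.

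Of the genes that Tnf can induce through NF-kB, Sod2, Vcam1, Tnfaip2, Icam1 and Tnip1 were higher on all tumoricidal arrays. Of 16 tested, 0 passed at an adjusted p under 0.05. At an unadjusted p under 0.05, 5 were higher (6.12% of named genes) and 0 were lower (2.79%), and the median was 0.27. Groups were apart and higher for 5 of the 16, against 17% of named genes, and apart and lower for 0 (6.51%). Sod2, the mitochondrial superoxide dismutase, had 3196, 3116 and 4149 on T1 to T3, against 1146 and 1699 on C1 and C2, which is 1.31 on the log2 scale (SE 0.30, limma adjusted p = 0.319). Vcam1, an adhesion molecule, differed by 1.98 (SE 0.48, limma adjusted p = 0.359) and Tnfaip2 by 1.55 (SE 0.42, limma adjusted p = 0.416).

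Cxcl1, Il6, Icam1 and Tnip1, and the single markers above, are named because of their values, outside the naming rule. The neutrophil chemokine Cxcl1 was at -2.36 and -2.34 log2 units from the control mean on T1 and T2 and at 0.33 on T3. Tnfsf9 was at -3.23, -3.39 and 0.41 on T1 to T3, and Il6 at -1.09, -0.97 and 0.99. Tnf was at -0.55, -1.24 and 1.73. T3 therefore differed from the other tumoricidal arrays in the same direction for Tnf, Tnfsf9, Cxcl1 and Il6. That array lies in batch B, and the part of the batch in these values was not tested.

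**Figure D5:**
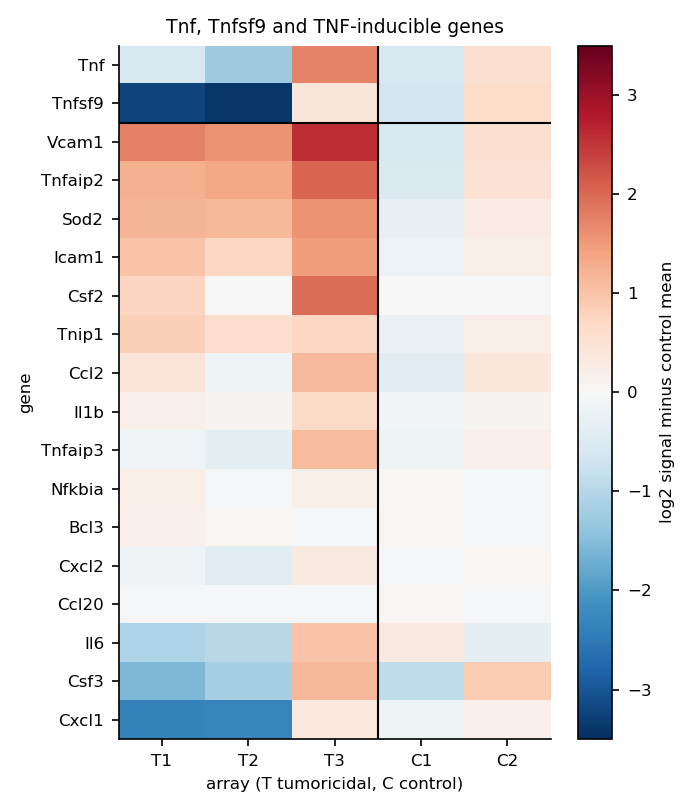
Log2 signal minus the mean of both control arrays for Tnf and Tnfsf9 (top) and the 16 TNF-inducible genes, on tumoricidal arrays T1 to T3 and control arrays C1 and C2, with red above and blue below the control mean. Vcam1, Tnfaip2 and Sod2 are red on T1, T2 and T3, while Tnfsf9, Il6 and Cxcl1 are blue on T1 and T2 and red on T3.

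Among genes that shed or process the ligands, Rhbdf2 had the smallest p. Of 9 tested, 0 passed at an adjusted p under 0.05 and 1 was higher at an unadjusted p under 0.05 (6.12% of named genes), with a median of 0.32. Rhbdf2, which brings the TNF-shedding protease Adam17 to the cell surface, had 246, 192 and 236 on T1 to T3, against 92.5 and 125 on C1 and C2 (log2 difference 1.06, SE 0.27, limma adjusted p = 0.383). Sppl2a, a protease that cleaves Tnf and Fasl stubs within the membrane, differed by 0.76 (SE 0.34), and by 1.11 (SE 0.28) and 1.59 (SE 0.36) on its other probe sets, with the groups apart on all 3. Furin, which cuts APRIL and BAFF, differed by 0.50 (SE 0.25). For control of Tnf mRNA, 0 of 10 tested genes had a limma adjusted p under 0.05 (0.0644% of named genes). An unadjusted p under 0.05 was reached by 0 of them (6.12% of named genes higher and 2.79% lower). The smallest p values there belonged to Tia1 at -0.46 (SE 0.29), Elavl1 at 0.35 (SE 0.23) and Rc3h2 at 0.41 (SE 0.28), and their probe sets agreed in sign on 4 of 5, 4 of 6 and 3 of 7.

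Other ligands of the superfamily were also on the array. Of 8 listed, 5 were tested, Tnfsf11 was at the floor on all arrays, and Tnfsf15 and Tnfsf18 are not analysed here. None of the 5 reached an adjusted p under 0.05 (0.0644% of named genes). None reached an unadjusted p under 0.05 either (6.12% of named genes higher and 2.79% lower), and the median was -0.20. Tnfsf4 (OX40 ligand) differed by -0.66 (SE 0.34), Cd70 by 0.55 (SE 0.39) and Eda by -0.70 (SE 0.59, with 3 of its 5 probe sets agreeing in sign). Cd70 was under the floor on T3, C1 and C2, and Eda on T2, and the floor stood in for those values.

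Interferon-gamma indicators, named whatever their result, included the genes that passed. Cxcl9 and Gbp2 rose by 6.02 and 3.82 log2 units (limma adjusted p = 0.0270 and 0.0481), and Irf1 and Ifng differed by 2.49 and 2.59 (limma adjusted p = 0.220 and 0.365). Ifng was under the floor on C2, so its difference was fitted with the floor in place of that value. With the batch as a block the adjusted p was 0.145 for both Cxcl9 and Gbp2, at differences of 5.98 and 3.84, and no probe set passed with any single array left out. No difference between those genes and the ligands was tested.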

How the data were processed

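Macrophage RNA (6 µg per array, Trizol, per the labels' protocols) was hybridised to 5 Affymetrix arrays. The authors deposited linear signal intensity per probe set, and trimming 2% at either end leaves an array mean of 100.0 in each column. The summarising software is not given in the sources used here. Array medians differed by 1.47 times, over the limit of 1.1, so each array was scaled to the median of the medians. The 64 control probe sets were removed, signals under the pooled 25th percentile (4.79) were raised to it and log2 was taken. Another 3984 probe sets never exceeded that floor and went untested, and 41053 were compared with limma 3.58.1 (lmFit, eBayes, two-sided, Benjamini-Hochberg) in R 4.3.3, with no covariate. Figures used Python 3.11.15 and matplotlib 3.10.9.

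Symbols came from the platform annotation, checked by Entrez identifier against RefSeq GRCm38.p6 (0 changed). Each gene is represented by its single-symbol probe set with the highest mean log2. Differences of genes at the floor on an array are bounds where the text says so. Promoters are RefSeq sequences. The members and lists were chosen with earlier results of these data known. Named genes were all ligands and receptors, the interferon indicators and, per pathway list, those with the 3 smallest p values, and the marker lists are given by counts. In a run tested on simulated data built from these arrays, 200 of 41053 probe sets were changed, all with a mean above the median. For this comparison limma recovered 0%, 13.4% and 65.2% of log2 changes of 1, 2 and 4 there. The simulated noise was independent between arrays, with no batch shift. Probe sets below that median, such as those of Lta and Fasl, were not covered by the run. Depth does not apply to arrays. Alternatives were other scalings, floors and filters, a trended robust variance, blocks for replicate number and spike-in batch, and each array left out.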

Additional observations from a re-analysis of the deposited data

How the results depend on the processing

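The 8 ligand genes were refitted under 17 alternatives each (15 for Lta). Ltb, Fasl, Tnfsf10, Tnfsf14 and Tnfsf13b stayed positive and Tnfsf9 negative throughout, with ranges of 1.07 to 1.82, 1.0 to 2.57, 0.87 to 1.30, 0.56 to 1.53, 0.16 to 1.21 and -3.31 to -0.22. Lta ran from 0 (within batch B) to 2.12 (10th percentile floor), positive in 14 of 15. Tnf turned sign with the spike-in batch as a block (0.31) and over arrays left out (-0.90 to 0.59). Ltb passed (adjusted p = 0.0135) with log2(scaled signal + 16) and no floor, where 445 probe sets in all and 1 ligand probe set were called and 1 ligand probe set was lower at an unadjusted p under 0.05; otherwise 0 ligand probe sets were called. The whole table gave 21 calls, 62 with no filter, 193 with probe sets above the median only, 202 with a trended robust variance, and 0 with the 10th percentile floor, the spike-in batch as a block or any single array left out (0 to 0). Arrays of the same replicate number did not deviate together (r = 0.02 and -0.24 across probe sets). The 2 control arrays deviate from their mean in mirror image, so this cannot settle whether the number is a pairing. With the replicate block, which also gave 0 calls, 3 ligand probe sets were higher and 1 lower at an unadjusted p under 0.05. Without that block the counts were 7 and 0. Over arrays left out these counts were 3 to 7 and 0 to 1, with 3 higher without control replicate 2, 4 without control replicate 1 or tumoricidal replicate 1, and 1 lower without tumoricidal replicate 3. Leaving out a control array leaves 1, whose spread is assumed to equal that of the tumoricidal arrays. At an unadjusted p under 0.05 the calls were 61.6% higher with the median scaling, 31.9% with the deposited scaling and 50.5% with quantile normalization. The median difference between death and other ligands ran from -0.08 to 0.85 over all alternatives, one of which, with the multi-symbol probe sets counted in (0.55), was chosen after seeing the data. The causes were not tested.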
